A study of Mus musculus with 9 samples.

Results

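Astrocytes of the hypothalamus were followed through 10 genes whose products mark this cell type: Gfap, Aqp4, Slc1a2, Slc1a3, Aldh1l1, S100b, Gja1, Glul, Sox9 and Agt. They were the rows of the deposited count table that carry these names, 10 of 54532 genes, and all 10 were among the 17546 genes kept by the filter on low counts. RNA came from the hypothalamus of wild-type male mice of the outbred ICR stock on postnatal day 21, with 3 libraries in each of 3 groups. HA pups had dams fed high-fat high-sucrose chow, with 45% of its energy from fat, and were injected with 4-PBA, 4-phenylbutyric acid, known as a chemical chaperone and an inhibitor of histone deacetylases. HP pups had dams on the same diet and were injected with PBS, the vehicle. LP pups had dams fed low-fat chow, with 10% of its energy from fat, and were injected with PBS. Injections were daily on postnatal days 4 to 16. Dams began their diet at 5 weeks of age and ate it for 5 weeks before mating and then through gestation and lactation, with litters set to 10 pups. HP against LP addresses the maternal diet, HA against HP addresses 4-PBA under that diet, and HA against LP sets the treated pups beside those of low-fat dams.

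Astrocytes take up the glutamate and potassium that neurons release, turn glutamate into glutamine, move water at their endfeet on blood vessels and are coupled to each other by gap junctions. In the hypothalamus they sense nutrients and hormones, and a rise of the filament protein GFAP is a usual sign of their reaction to injury or to a fatty diet. These are bulk libraries, so fewer astrocytes and less RNA per astrocyte cannot be told apart for any gene here, and several members are also made by other cells: S100b and Glul by oligodendrocytes, and Gfap by tanycytes, which line the third ventricle.

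No astrocyte gene of the 10 was called in any comparison. Every member was well counted in every library, from a lowest count of 377 for Sox9 to a highest of 33708 for Slc1a2. In HA against HP, 0 of 10 members passed an adjusted p of 0.05, where 0.0114% of all genes tested did. The count was also 0 of 10 in HP against LP (0.0114% of all genes) and in HA against LP (0% of all genes). At an unadjusted p under 0.05 it was again 0 of 10 in each comparison, against 5.42% of all genes in HA against HP, 6.12% in HP against LP and 6.51% in HA against LP. This unadjusted count depends on the fit: in HP against LP it was 3 with the replicate number as a block (Aqp4, Slc1a2 and Gja1), 2 with DESeq2 and 1 with limma-voom, and in HA against LP it was 2, 2 and 1 in these fits. The share of all genes at that threshold was not computed for these fits, so their counts have no background to be read against. Without HA replicate 3 and LP replicate 3, Glul had an unadjusted p of 0.047 in HA against LP (edgeR). The smallest adjusted p of a member was 0.840 in HA against HP, 0.829 in HP against LP and 0.776 in HA against LP (edgeR quasi-likelihood F test, Benjamini-Hochberg over all genes tested).

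The libraries differed in other ways that touch these results. Total counts lay between 18226924 and 21823961 per library, and the 10 members together took 0.482% to 0.551% of them. Summed markers of meningeal fibroblasts (12 genes, none at 0) reached 1314 CPM (counts scaled to library size) in HA replicate 3. They were at 714 CPM in LP replicate 3 and ranged over 78.6 to 182 CPM in the remaining 7. Summed markers of striatal neurons (10 genes, none at 0) were 343 to 367 CPM in 7 libraries, but 508 CPM for LP replicate 1 and 657 CPM for LP replicate 2. Summed hypothalamic markers (18 genes) lay between 1306 and 1664 CPM in every library, and of these Kiss1 had 0 counts in all 9, which allows up to 0.167 CPM in the shallowest of them. Library titles hold a code of unstated meaning. HA and HP share its values, Hg43 in replicates 1 and 2 and Hg13 in replicate 3, while LP has Lg42 in replicate 1 and Lg63 in replicates 2 and 3, so in HP against LP and HA against LP the diet and the code cannot be told apart. Litters are not identified in the labels, and p-values here therefore reflect the spread between the sequenced libraries alone.

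To show the DNA next to which these genes start, the 250 bases upstream of the RefSeq start (GRCm38.p6) are printed for 4 members: Gfap and S100b, which had the widest and the third widest spread of CPM over the 9 libraries, and Slc1a3 and Agt, which had the narrowest. Windows were found for 8 of the 10 members, with Aqp4, whose spread came between those of Gfap and S100b, and Sox9 not matched. Capitals mark matches on either strand to TTCNNNGAA, the palindrome bound by STAT factors, to TATAAA and to CCAAT, and no marked matches overlap. The windows are Gfap at chr11:102897201-102897450 (minus strand), S100b at chr10:76253586-76253835 (plus strand), Slc1a3 at chr15:8710808-8711057 (minus strand) and Agt at chr8:124569707-124569956 (minus strand).
Gfap: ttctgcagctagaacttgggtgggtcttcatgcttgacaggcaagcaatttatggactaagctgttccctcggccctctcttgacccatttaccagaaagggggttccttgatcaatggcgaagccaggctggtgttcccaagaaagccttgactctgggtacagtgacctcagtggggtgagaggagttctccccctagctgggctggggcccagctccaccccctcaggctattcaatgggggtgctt
S100b: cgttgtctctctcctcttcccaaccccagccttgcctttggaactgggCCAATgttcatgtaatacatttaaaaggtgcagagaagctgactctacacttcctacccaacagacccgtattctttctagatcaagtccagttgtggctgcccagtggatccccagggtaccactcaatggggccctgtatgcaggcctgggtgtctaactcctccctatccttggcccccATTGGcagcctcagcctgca
Slc1a3: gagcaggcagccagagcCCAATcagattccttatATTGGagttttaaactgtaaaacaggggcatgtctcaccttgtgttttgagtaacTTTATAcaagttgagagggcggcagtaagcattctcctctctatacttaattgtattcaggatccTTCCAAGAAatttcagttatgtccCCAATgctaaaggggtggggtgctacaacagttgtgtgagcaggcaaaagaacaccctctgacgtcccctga
Agt: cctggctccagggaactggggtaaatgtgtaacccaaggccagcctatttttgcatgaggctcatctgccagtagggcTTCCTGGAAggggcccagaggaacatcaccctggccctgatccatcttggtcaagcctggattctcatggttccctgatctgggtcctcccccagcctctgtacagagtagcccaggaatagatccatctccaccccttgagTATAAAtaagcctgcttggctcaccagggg
The Agt window held the STAT letters 172 bases and TATAAA 30 bases before the start. Slc1a3 held the STAT letters 96 bases before the start, TATAAA on the other strand, and CCAAT on both strands. S100b held CCAAT at 202 bases and, on the other strand, at 20 bases before the start, and the Gfap window, whose RefSeq start lies inside the deposited gene model, held none of the 3 motifs. Over 32851 RefSeq windows of the same length, the STAT letters occurred in 7.02%, TATAAA in 12.37% and CCAAT in 33.85%. Among the 8 member windows the counts were 2 for STAT, 2 for TATAAA and 4 for CCAAT. A match describes the letters and shows no binding.

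Between members, levels can be compared only per length, for which the deposited FPKM values (fragments scaled by gene length and library total) were used. Glul stood highest at 294 ± 22.9 FPKM (SD, n = 9), then Gfap at 196 ± 33.2, Agt at 138 ± 7.36 and Slc1a2 at 107 ± 6.67 FPKM. S100b followed at 101 ± 11.4 FPKM, Slc1a3 at 86.1 ± 3.91, Aqp4 at 56.1 ± 6.59 and Gja1 at 39.0 ± 2.10 FPKM. The enzyme Aldh1l1 at 10.3 ± 0.780 FPKM and the transcription factor Sox9 at 5.54 ± 0.391 FPKM were lowest. Neighbours in this order were ranked the same way in 9 of 9 libraries, except Slc1a2 above S100b (6 of 9) and S100b above Slc1a3 (8 of 9).

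**Figure D1:**
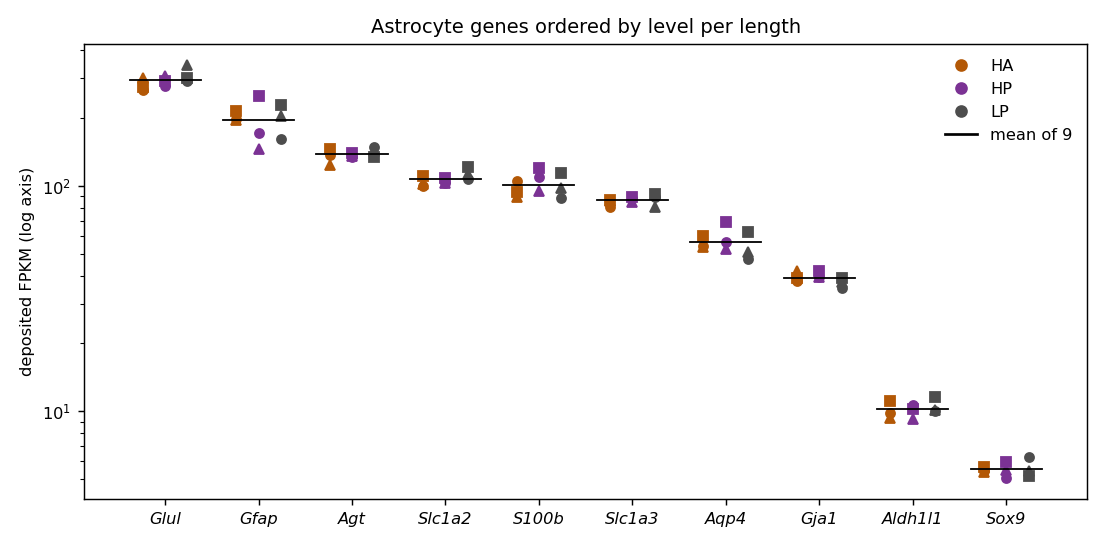
Deposited FPKM (log axis) of the 10 members, ordered by their mean, with 1 point per library in HA, HP and LP (circle, square and triangle for replicates 1, 2 and 3) and a line for the mean over the 9 libraries. The points of a member lie close together on this scale, from Glul at 266 to 344 FPKM down to Sox9 at 5.06 to 6.31 FPKM.

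Glutamate handling is carried by 3 members. Slc1a2 (ENSMUSG00000005089, chr2:102658659-102790784, plus strand, protein-coding, GRCm38 as for all coordinates here) encodes GLT-1, the transporter that clears most synaptic glutamate in the forebrain. It stood at 1316, 1447 and 1340 CPM in HA, at 1352, 1423 and 1360 CPM in HP and at 1414, 1597 and 1487 CPM in LP. The LP libraries lie towards the upper end, but the highest HA library and the highest HP library are above the lowest LP library, so the groups overlap. The log2 fold change was -0.12 in HP against LP (SE 0.0614, 95% interval -0.26 to 0.02, adjusted p = 0.832, edgeR) and -0.13 in HA against LP (SE 0.0614, interval -0.27 to 0.004, adjusted p = 0.776). In HA against HP it was -0.01 (interval -0.15 to 0.13, adjusted p = 0.983).

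Slc1a3 (ENSMUSG00000005360, chr15:8634124-8710764, minus strand) encodes GLAST, the glutamate-aspartate transporter that is also strong in radial glia and tanycytes. Its values were 690, 742 and 734 CPM in HA, 753, 764 and 723 CPM in HP and 762, 786 and 685 CPM in LP. It was the steadiest member, with a coefficient of variation of 4.59% over the 9 libraries, and LP alone spans the ranges of both other groups. Its log2 fold change was -0.05 in HA against HP (interval -0.18 to 0.08) and 0.00 in HP against LP (interval -0.13 to 0.14), so a difference of 1.3-fold lies outside both intervals.

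Glul (ENSMUSG00000026473, chr1:153899944-153909723, plus strand) encodes glutamine synthetase, which turns the glutamate taken up into glutamine. It stood at 885, 911 and 1006 CPM in HA, 922, 964 and 1019 CPM in HP and 971, 1002 and 1144 CPM in LP. Replicate 3 was the highest library of each group, and the group ranges overlap. Fold changes on the log2 scale were -0.15 in HA against LP (SE 0.0752, interval -0.32 to 0.01, adjusted p = 0.791, edgeR), -0.10 in HP against LP (adjusted p = 0.886) and -0.05 in HA against HP (adjusted p = 0.915).

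Channels at endfeet and gap junctions are represented by Aqp4 and Gja1. Aqp4 (ENSMUSG00000024411, chr18:15389394-15403684, minus strand) encodes aquaporin-4, the water channel of astrocyte endfeet. It stood at 276, 303 and 273 CPM in HA, 288, 352 and 267 CPM in HP and 240, 317 and 260 CPM in LP. Replicate 2 is the highest library in all 3 groups, and the spread within HP and within LP exceeds the distance between the group means of 284 ± 16.6 CPM in HA, 302 ± 44.2 CPM in HP and 272 ± 39.96 CPM in LP (SD, n = 3 each). For Aqp4 the log2 fold change was -0.09 in HA against HP (interval -0.35 to 0.17) and 0.15 in HP against LP (interval -0.11 to 0.41).

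Gja1 (ENSMUSG00000050953, chr10:56377330-56402513, plus strand) encodes connexin 43, the main gap junction protein of astrocytes. It stood at 389, 400 and 434 CPM in HA, 404, 431 and 407 CPM in HP and 364, 401 and 385 CPM in LP. Every HP library was above every LP library, by a margin that is small at its narrowest point, and HA overlapped both. A complete separation in this direction occurred in 5.93% of all genes tested, and Gja1 was the 1 member of 10 with one. No member separated HA from HP, where 5.92% of all genes did upwards and 5.89% downwards, or HA from LP, where 5.4% and 5.51% did. Its log2 fold change in HP against LP was 0.11 (SE 0.0547, interval -0.01 to 0.23, adjusted p = 0.829, edgeR).

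The filament protein Gfap and the calcium-binding protein S100b are the members most used to stain astrocytes. Gfap (ENSMUSG00000020932, chr11:102887336-102900912, minus strand) stood at 836, 903 and 831 CPM in HA, 725, 1057 and 613 CPM in HP and 679, 967 and 858 CPM in LP. It was the most variable member, with a coefficient of variation of 16.9% and a ratio of 1.72 between the highest library and the lowest, which are both HP libraries. The means were 857 ± 40.2 CPM in HA, 798 ± 231 CPM in HP and 835 ± 146 CPM in LP (SD, n = 3 each), and the 3 HA libraries lie inside the ranges of HP and of LP. The log2 fold change was 0.10 in HA against HP (SE 0.181, interval -0.30 to 0.50, adjusted p = 0.933, edgeR) and -0.06 in HP against LP (interval -0.47 to 0.34, adjusted p = 0.974). On the linear scale these intervals run from 0.812 to 1.42 in HA against HP and from 0.723 to 1.26 in HP against LP, which are the widest of any member.

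S100b (ENSMUSG00000033208, chr10:76253853-76261159, plus strand) stood at 156, 139 and 132 CPM in HA, 163, 178 and 141 CPM in HP and 131, 170 and 146 CPM in LP. HP tends to be the highest group, but its lowest library is below the highest library of HA and of LP. The log2 fold change of -0.17 in HA against HP was the largest in size among the members in that comparison (SE 0.107, interval -0.41 to 0.07, adjusted p = 0.840, edgeR). Markers of myelinating oligodendrocytes, cells that also make S100b, had 0 of 12 positive estimates in HA against HP (median log2 fold change -0.31). In HP against LP 12 of 12 were positive (median 0.22), with 0 called in either comparison. The shares of all genes that were positive were 50.9% in HA against HP and 49.1% in HP against LP. Glul, which these cells also make, was at -0.05 in HA against HP and at -0.10 in HP against LP, there opposite to the myelin markers. The part of oligodendrocytes in the values of S100b and of Glul was not tested. S100b overlaps Dip2a on the other strand, with 2947 counts on average for S100b and 2653 for Dip2a. The library kit is not described as stranded, so reads of the overlap cannot be assigned and the level of S100b is uncertain to that extent. Dip2a itself lay between 123 and 151 CPM in the 9 libraries.

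**Figure D2:**
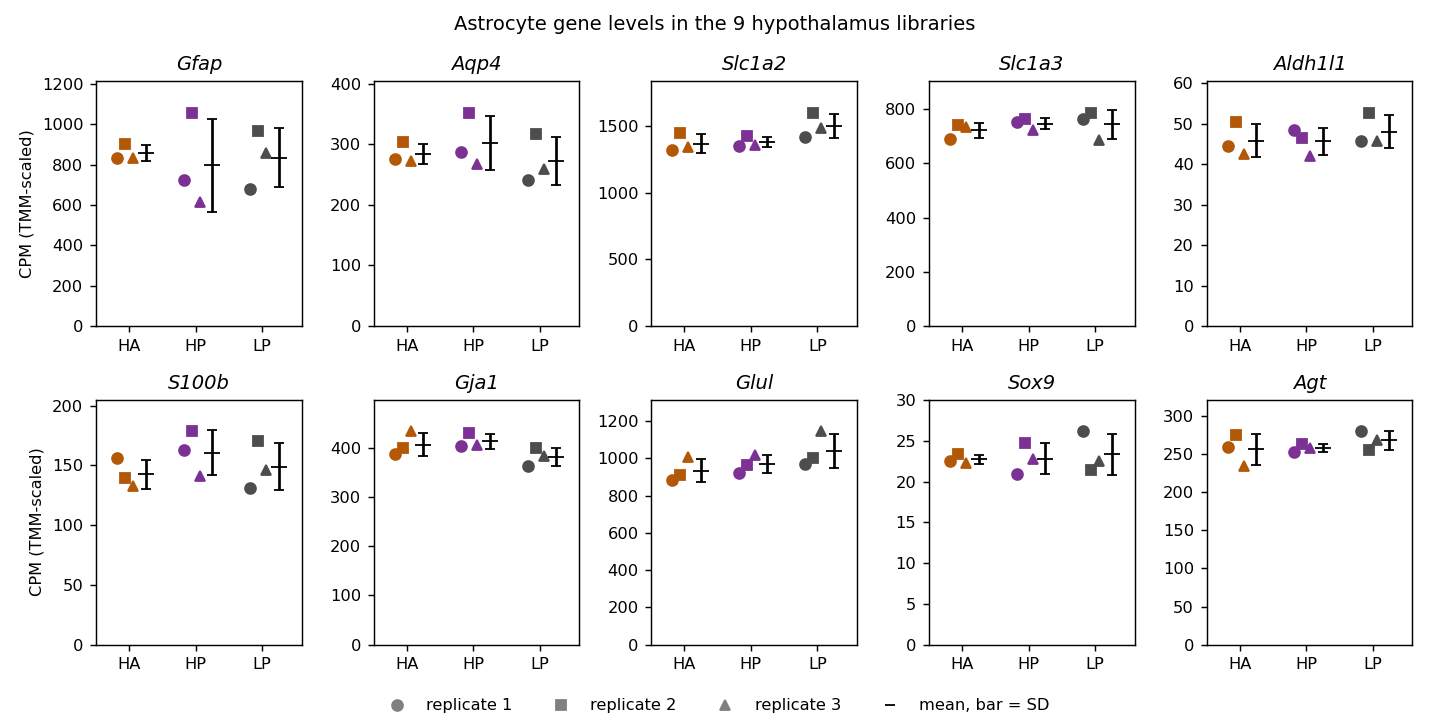
CPM of each member in its own panel, with 1 point per library for HA, HP and LP from left to right (symbols mark replicates 1, 2 and 3), a dash for the group mean and a bar for its SD. The groups overlap in every panel and pair except HP and LP for Gja1, and Gfap has the widest scatter within HP, from 613 to 1057 CPM.

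Among the remaining members, Aldh1l1 (ENSMUSG00000030088, chr6:90486427-90600203, plus strand) encodes a folate enzyme, 10-formyltetrahydrofolate dehydrogenase, widely used as a marker of all astrocytes. It stood at 44.6, 50.4 and 42.4 CPM in HA, 48.6, 46.4 and 42.0 CPM in HP and 45.6, 52.7 and 45.8 CPM in LP, so the groups overlap throughout. Sox9 (ENSMUSG00000000567, chr11:112782224-112787760, plus strand) encodes a transcription factor that starts gliogenesis and persists in astrocyte nuclei. It stood at 22.6, 23.4 and 22.3 CPM in HA, 21.0, 24.7 and 22.7 CPM in HP and 26.2, 21.4 and 22.5 CPM in LP, with LP holding both a high library and a low one. Sox9 had a log2 fold change of -0.00 in HA against HP (interval -0.21 to 0.20) and -0.03 in HP against LP (interval -0.24 to 0.17).

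Agt (ENSMUSG00000031980, chr8:124556534-124569706, minus strand) encodes angiotensinogen, the precursor of the angiotensins, which brain astrocytes secrete. It stood at 260, 276 and 234 CPM in HA, 253, 264 and 258 CPM in HP and 280, 256 and 270 CPM in LP. The HP libraries fall inside the range of HA, and HP and LP overlap. The log2 fold change of Agt was -0.01 in HA against HP (interval -0.14 to 0.12, adjusted p = 0.984, edgeR) and -0.06 in HP against LP (interval -0.19 to 0.08, adjusted p = 0.920).

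Over the 10 members, 2 log2 fold changes were positive and 8 negative in HA against HP, where 49.1% of all genes were negative, but 5 and 5 with libraries scaled by their totals. There were 4 positive and 6 negative in HP against LP (50.9% of all genes negative) and 3 positive and 7 negative in HA against LP (48.1% negative). The member medians were -0.02 in HA against HP, -0.04 in HP against LP and -0.05 in HA against LP, beside medians over all genes of 0.00, -0.00 and 0.01 in the same comparisons. Comparisons share groups, HP in the comparisons of HA with HP and of HP with LP, and HA and LP likewise, so their counts are not independent. Intervals that lie entirely within 1.3-fold either way numbered 8 in HA against HP (all but Gfap and S100b), 8 in HP against LP (all but Gfap and Aqp4) and 9 in HA against LP (all but Gfap). The 1.3-fold bound serves description only. The share of all genes with such intervals is not given, so these counts have no background to be read against.

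**Figure D3:**
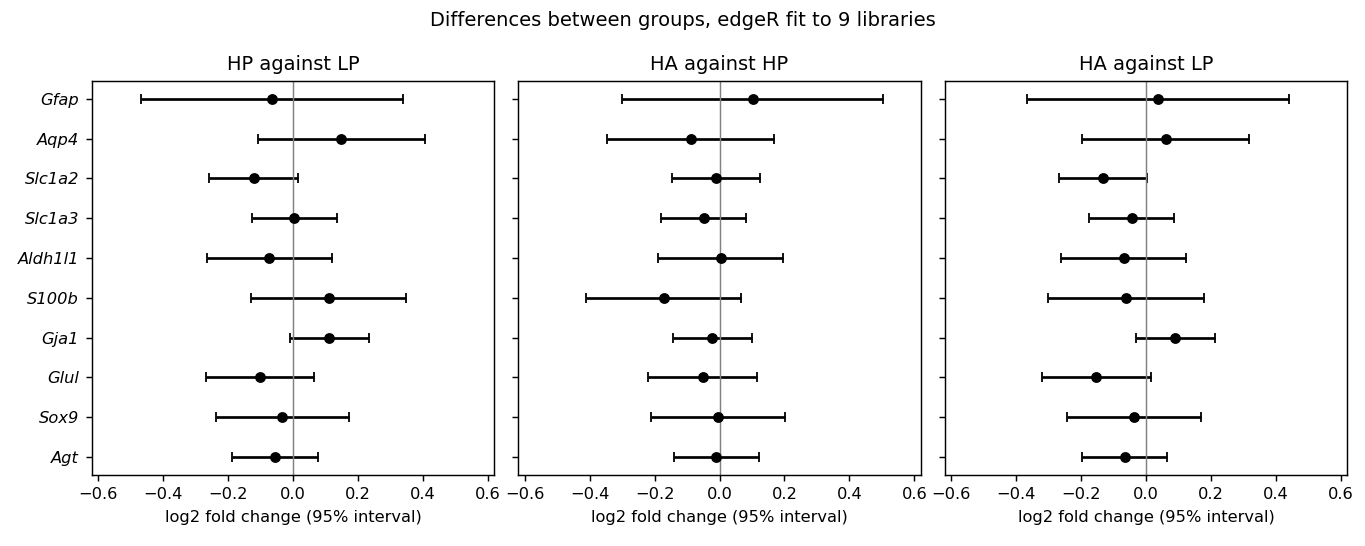
Log2 fold change of each member with its 95% interval for each comparison, with HP against LP on the left, HA against HP in the middle and HA against LP on the right, and a line at 0. Each interval includes 0, and the widest in each comparison belongs to Gfap.

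Replicate 2 was the highest library for most members: for 7 of 10 in HA, 8 of 10 in HP and 7 of 10 in LP, beside 29.7%, 35.4% and 33.5% of all genes tested in the same groups. Gfap, Aqp4, Slc1a2 and Slc1a3 were highest there in all 3 groups, 4 of 10 members (40%) beside 698 of 17546 genes tested (3.98%). Members can vary together within a library, so these are not 4 independent cases and the shares are not tested against each other. Glul was highest in replicate 3 of each group. Replicates of a group have no order. Replicate 2 of HA and of HP share the title code Hg43, as do their replicates 1, and no label links either to replicate 2 of LP beyond the number. For the 3 members of widest spread, the protein-coding genes whose log2 CPM followed theirs most closely over the 9 libraries were sought among 11581 genes with a mean of at least 5 CPM, by the root mean square difference of deviations from the mean. For Gfap they were Akna, Coa6 and Lca5l, at differences of 0.0999, 0.101 and 0.102 on the log2 scale, beside a spread of 0.249 for Gfap itself. For Aqp4 they were Polb, Uros and Tdp1, at 0.0631, 0.0653 and 0.0684, beside a spread of 0.165. None of these 6 genes was on the astrocyte lists used here.

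S100b was followed most closely by Zeb2, a transcription factor gene, at a root mean square difference of 0.0291 on the log2 scale, then by Dock10, a guanine nucleotide exchange factor gene, at 0.0516 and by Cers2, a ceramide synthase gene, at 0.0596. The spread of S100b itself was 0.160. Zeb2 stood at 87.4, 78.0 and 72.4 CPM in HA, 91.6, 98.3 and 79.9 CPM in HP and 75.0, 96.0 and 77.8 CPM in LP. Within each group its 3 libraries are in the same order as those of S100b. Zeb2 was chosen as the nearest of 11581 genes, which makes such an order likely beforehand, so it is no separate result. Summed markers of myelinating oligodendrocytes (12 genes, none at 0) have that order too: 20917, 15107 and 12369 CPM in HA, 20844, 21772 and 18152 CPM in HP and 14019, 21772 and 15898 CPM in LP. This order rests on 3 libraries per group, and the share of all genes that have it was not counted. Glul, which oligodendrocytes also make, does not have that order and was highest in replicate 3 of each group. The part of oligodendrocytes in the levels of S100b and Glul was not tested.

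**Figure D4:**
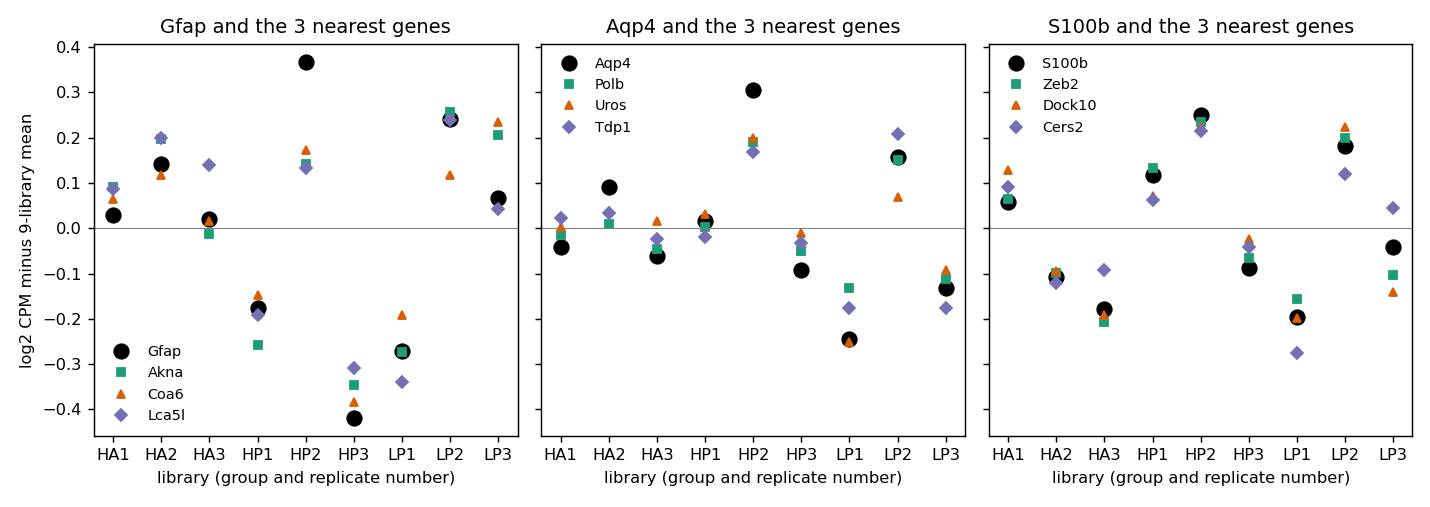
Log2 CPM minus the mean over 9 libraries for Gfap, Aqp4 and S100b (black circles) and the 3 genes closest to each (coloured markers), by library in the order HA, HP and LP. S100b and Zeb2 nearly coincide, at a root mean square difference of 0.0291, while the genes nearest to Gfap follow it more loosely.

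Ratios within a library do not depend on how libraries are scaled to each other. The ratio of Slc1a2 to Slc1a3 in FPKM was 1.23 ± 0.0414 in HA, 1.20 ± 0.0293 in HP and 1.31 ± 0.103 in LP (SD, n = 3 each). LP had the widest range, 1.21 to 1.41, which overlaps HA at 1.19 to 1.27 and HP at 1.17 to 1.22. Glul to Slc1a2 averaged 2.70 ± 0.241 in HA, 2.78 ± 0.159 in HP and 2.74 ± 0.282 in LP. Agt to Aldh1l1 averaged 13.4 ± 0.461 in HA, 13.6 ± 1.12 in HP and 13.4 ± 1.63 in LP. Gfap to Aldh1l1, a measure of filament transcript beside a marker of all astrocytes, averaged 20.1 ± 0.887 in HA, 18.7 ± 4.94 in HP and 18.5 ± 2.28 in LP. S100b to Aldh1l1 averaged 9.52 ± 1.12 in HA, 10.7 ± 0.852 in HP and 9.41 ± 0.597 in LP, and Aqp4 to Gja1 averaged 1.41 ± 0.132, 1.47 ± 0.164 and 1.43 ± 0.146 in the same order of groups. Of 18 pairings of a ratio with a comparison, the group ranges overlapped in all but 1. That was S100b to Aldh1l1, at 10.2 to 11.7 in HP and 8.72 to 9.82 in LP, and it was not tested. For single genes, 5.93% of all genes tested had every HP library above every LP library, and 5.83% every HP library below. No such share was computed for ratios, so 1 of 18 is not read as a result. In HP against LP 12 of 12 myelin markers had positive estimates, beside 49.1% of all genes. Their part in the ratio of S100b to Aldh1l1 was not tested either.

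Genes that work beside the members were described from 10 further lists, and none of their genes passed the adjusted threshold in any comparison. Of 39 other astrocyte genes, 16 were positive and 23 negative in HA against HP, the median being -0.01, and the same counts of 16 and 23 held in HP against LP, with a median of -0.03. Of all genes tested, 50.9% were positive in HA against HP and 49.1% in HP against LP. The smallest p-values on this list were those of Pla2g7, a secreted phospholipase, of Mfge8, a bridging protein for engulfment, and of Slco1c1, a transporter of thyroid hormone. Pla2g7 stood at 91.7 ± 10.6 CPM in HA, 78.6 ± 4.65 CPM in HP and 93.8 ± 4.93 CPM in LP (SD, n = 3 each), with -0.26 as log2 fold change in HP against LP (adjusted p = 0.758, edgeR). Mfge8 averaged 91.8 ± 1.48 CPM in HA, 84.5 ± 2.30 CPM in HP and 92.3 ± 3.38 CPM in LP, with every HP library below every HA library and every LP library. Among all genes tested, every HA library was above every HP library in 5.92%, and every HP library below every LP library in 5.83%. The share with both was not counted. Mfge8 was named for a small p on its list, which makes separated groups likely beforehand, so the separation is no separate result. Slco1c1 averaged 67.3 ± 4.24 CPM in HA, 70.2 ± 4.02 CPM in HP and 59.7 ± 6.22 CPM in LP (adjusted p = 0.773 in HP against LP, edgeR).

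In the glutamate-glutamine cycle (11 genes), 8 were positive in HA against HP and 4 in HP against LP, with medians of 0.11 and -0.07. Slc38a5, a glutamine transporter, stood at 6.31, 6.26 and 9.69 CPM in HA, 4.62, 3.99 and 3.66 CPM in HP and 4.87, 6.73 and 6.77 CPM in LP. All HP libraries were below all others, with a log2 fold change of 0.86 in HA against HP (SE 0.212, adjusted p = 0.840, edgeR) and -0.58 in HP against LP (adjusted p = 0.792). Of all genes tested, 5.92% had every HA library above every HP library, and 5.83% every HP library below every LP library. Slc38a5 was named for the smallest p of its list, which makes separated groups likely beforehand. The share of genes with both separations was not counted. The highest value of Slc38a5 is in HA replicate 3, where meningeal markers were highest. Slc1a1, the glutamate transporter of neurons, averaged 64.5 ± 7.19 CPM in HA, 72.6 ± 0.748 CPM in HP and 70.4 ± 1.92 CPM in LP. Slc17a7, a vesicular glutamate transporter that is sparse in the hypothalamus, lay between 0.835 and 2.23 CPM in the 9 libraries.

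Partners of the channels (16 genes, for potassium, gap junctions and water) had 7 positive in HA against HP and 10 in HP against LP, with medians of -0.01 and 0.03. Hepacam, an adhesion protein of astrocyte junctions, averaged 89.3 ± 3.903 CPM in HA, 97.2 ± 5.30 CPM in HP and 95.04 ± 2.69 CPM in LP. Mlc1, its membrane partner, averaged 296 ± 13.4 CPM in HA, 308 ± 20.6 CPM in HP and 281 ± 20.4 CPM in LP, and the cation channel Trpv4 lay between 1.40 and 5.33 CPM. Astrocyte transcription factors (14 genes) had 11 positive in HA against HP and 9 in HP against LP. Stat3, which drives Gfap in reactive astrocytes, averaged 98.0 ± 8.36 CPM in HA, 94.1 ± 2.19 CPM in HP and 86.2 ± 1.60 CPM in LP, a log2 fold change of 0.18 in HA against LP (SE 0.0585, adjusted p = 0.697, edgeR). Nfix averaged 69.0 ± 2.41 CPM in HA, 65.4 ± 4.23 CPM in HP and 63.1 ± 2.25 CPM in LP, and the Notch target Hes5 averaged 8.82 ± 0.615, 11.1 ± 1.98 and 10.996 ± 1.23 CPM in the same groups.

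The renin-angiotensin list around Agt had 10 of 12 genes above the filter (not Ren1 and Agtr1b), with 5 positive in HA against HP and 2 in HP against LP. Mme, which encodes the peptidase neprilysin, averaged 15.2 ± 2.17 CPM in HA, 13.4 ± 1.49 CPM in HP and 17.2 ± 1.46 CPM in LP (adjusted p = 0.779 in HP against LP, edgeR). Enpep, the aminopeptidase that cuts angiotensin II, averaged 4.75 ± 0.768 CPM in HA, 3.97 ± 1.23 CPM in HP and 3.07 ± 0.413 CPM in LP, and the receptor gene Mas1 lay at or below 0.805 CPM in every library. The folate list around Aldh1l1 (13 genes) had 4 positive in HA against HP and 10 in HP against LP. Amt, of the glycine cleavage system, averaged 31.7 ± 1.003 CPM in HA, 34.3 ± 1.66 CPM in HP and 31.1 ± 1.02 CPM in LP. Mthfd2 averaged 13.7 ± 0.850 CPM in HA, 14.5 ± 0.574 CPM in HP and 12.5 ± 1.94 CPM in LP, and Shmt1 averaged 1.39 ± 0.247, 2.04 ± 0.227 and 1.80 ± 0.293 CPM in the same groups. In HA against LP, where 51.9% of all genes were positive, the counts were 18 of 39 other astrocyte genes, 8 of 11 in the glutamate-glutamine cycle, 11 of 16 channel partners, 11 of 14 transcription factors, 4 of 10 renin-angiotensin genes and 8 of 13 folate genes.

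The lists of reactive astrocyte genes were, as means, high in the libraries where the meningeal markers were high. Summed markers of mural cells were also highest there, at 538 CPM in HA replicate 3 and 326 CPM in LP replicate 3. In bulk libraries the cells that made these transcripts cannot be told apart, so the lists do not show reactive astrocytes in those libraries. Of 12 genes shared by reactive states, 12 were positive in HA against HP (median 0.43), 7 in HP against LP (median 0.03) and 12 in HA against LP (median 0.64). With HA replicate 3 and LP replicate 3 left out, 4 of the 11 still tested were positive in HA against HP (median -0.24) and 11 in HP against LP (median 0.46), beside 50% and 50.7% of all genes, and 11 in HA against LP, beside 51% of all genes. Again 0 passed the adjusted threshold, where 0.0564% of all genes did in HA against HP, 0.209% in HP against LP and 0.13% in HA against LP. These are the libraries in which summed meningeal markers reached 1314 and 714 CPM, and they were the highest pair for 7 of the 12 genes (58.3%), against 8.55% of all genes tested and 0 of the 10 astrocyte members. Their part in the result was not tested beyond leaving them out. Without them, LP holds only replicates 1 and 2, those with high striatal markers. Summed meningeal markers were 78.6 and 101 CPM there, but 182 CPM in HP replicate 3, which stays in. The bearing of this on the counts was not tested. Aspg stood at 7.73, 9.14 and 47.8 CPM in HA, 4.56, 8.501 and 6.33 CPM in HP and 4.53, 7.11 and 29.0 CPM in LP. S1pr3, a sphingosine receptor, did not follow those libraries so closely, at 15.8, 15.8 and 18.2 CPM in HA, 14.7, 13.7 and 13.9 CPM in HP and 12.96, 13.7 and 14.9 CPM in LP (adjusted p = 0.756 in HA against LP, edgeR), and Cxcl10 stayed at or below 1.65 CPM.

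Without HA replicate 3 and LP replicate 3, the inflammatory and ischaemia-associated reactive lists moved alike in HA against HP and HP against LP. In HA against LP, 10 of 12 inflammatory and 8 of 9 ischaemia-associated genes were positive, beside 51.9% of all genes. Without the 2 libraries 8 and 5 were, beside 51% of all genes, while all 11 of the shared list were positive. Of the 12 inflammatory genes, 9 were positive in HA against HP and 5 in HP against LP, and without the same 2 libraries the counts were 4 and 10. Serping1, a complement inhibitor gene, stood at 9.21, 10.2 and 68.6 CPM in HA, 6.23, 9.12 and 8.52 CPM in HP and 7.01, 7.44 and 29.9 CPM in LP. Fbln5, an elastic fibre gene, stood at 39.0 CPM in HA replicate 3 and 12.5 CPM in LP replicate 3, with at most 6.54 CPM elsewhere, and H2-T23 stayed at or below 1.81 CPM. Of the 9 ischaemia-associated genes above the filter (not Clcf1, Tgm1 and Slc10a6), 8 were positive in HA against HP and 3 in HP against LP, and without the 2 libraries 3 and 7 were. Emp1 reached 17.2 CPM in HA replicate 3, with no more than 5.75 CPM elsewhere, while Cd109 averaged 4.42 ± 1.48 CPM in HA, 5.45 ± 0.712 CPM in HP and 3.58 ± 0.695 CPM in LP, and B3gnt5 lay between 0.968 and 1.89 CPM.

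Filament and S100 genes other than the members (10 genes) were positive for 10 in HA against HP and for 3 in HP against LP. Of all genes, 50.9% and 49.1% were. Without HA replicate 3 and LP replicate 3 the counts were 6 and 5, beside 50% and 50.7% of all genes. In HA against LP 7 of 10 were positive both with those libraries and without them, beside 51.9% and 51% of all genes. Des, the filament gene of muscle and mural cells, stood at 9.59 CPM in HA replicate 3 and 3.39 CPM in LP replicate 3, with at most 1.47 CPM elsewhere. Nes, a filament gene of progenitors and tanycytes, reached 32.6 CPM in HA replicate 3, with no more than 21.3 CPM elsewhere. S100a13 averaged 15.8 ± 0.397 CPM in HA, 13.1 ± 0.633 CPM in HP and 15.8 ± 2.39 CPM in LP. Chosen after their values were seen, Vim reached 168 CPM in HA replicate 3 and 88.1 CPM in LP replicate 3, and ranged over 43.1 to 80.2 CPM elsewhere. Serpina3n, a serpin gene that astrocytes induce strongly when reactive, was also chosen so and lay between 90.5 and 108 CPM in the 9 libraries. It was the exception among the 12 genes shared by reactive states, of which 10 were highest in HA replicate 3 and 1 in LP replicate 3. Gfap, the filament gene of astrocytes themselves, stood at 831 CPM in HA replicate 3 and 858 CPM in LP replicate 3, the lowest library of HA and the middle library of LP.

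**Figure D5:**
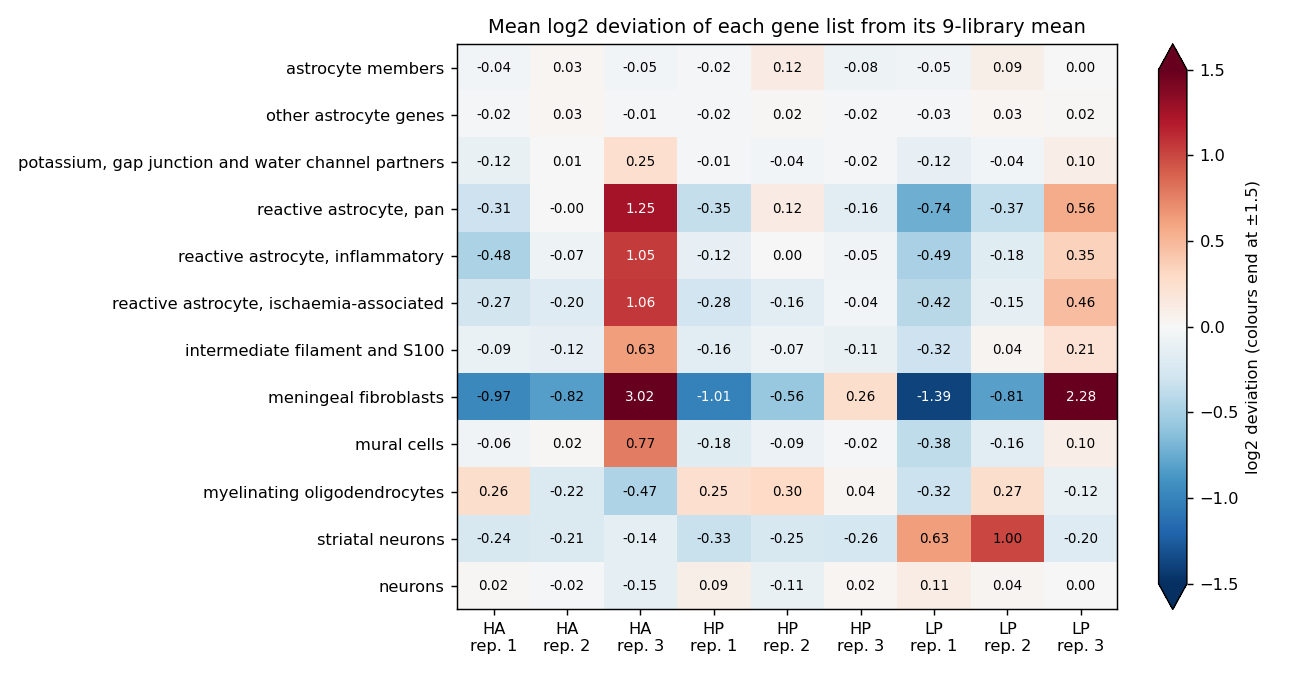
Mean deviation of log2 CPM from the mean over 9 libraries for the members and for 11 of the pathway and cell type lists (rows) in each library (columns, HA then HP then LP). The members lie between -0.08 and 0.12 throughout, while the reactive lists are high where the meningeal list is, in HA replicate 3 and LP replicate 3.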

How the data were processed

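Hypothalamic RNA of 9 mice was measured, with groups taken from the labels. The NEBNext Ultra kit was used on 3 µg of RNA, and the labels' protocols do not call it stranded. The submitters' processing notes name DESeq2 1.16.1, featureCounts 1.5.0-p3, HISAT2 2.0.5 and the build mm9. Gene starts and ends nevertheless matched GENCODE M21 on GRCm38 for 53499 of 54409 shared identifiers (98.3%), so deposited coordinates are read as GRCm38. The authors deposited raw counts per gene for 54532 genes and FPKM values, and the library medians of deposited over recomputed FPKM lay between 0.981 and 1.011.

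Counts were fitted with edgeR 4.0.16 in R 4.3.3 by the quasi-likelihood F test over all 9 libraries, with group as the only term, TMM scaling and filterByExpr (17546 genes kept). Tests were 2-sided, with Benjamini-Hochberg adjustment over all genes tested and a threshold of 0.05. The common biological coefficient of variation was 14.1%, and that of the members lay between 5.67% (Gja1) and 15.8% (Gfap). CPM use TMM-scaled totals, and log2 CPM a prior count of 2. SE is the size of the log2 fold change divided by the square root of F, and intervals are at 95%. The floor for a count of 0 is 3 counts and covers counting error only. The fitting script was tested on simulated data. Within-group pairs of libraries had a chi-square per degree of freedom of 4.73 to 25.8, over genes with at least 20 counts, so none was a repeat of another.

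All 10 members are named, as are up to 3 genes of smallest unadjusted p from each of the 10 pathway lists, and for the 3 members of widest spread the 3 genes of nearest profile. The members and lists were chosen with earlier results of these data known. Upstream windows came from RefSeq tables (GRCm38.p6). Same-numbered libraries of HA and LP deviated together at r = 0.26, 0.14 and 0.49, but differently numbered pairs reached 0.25, so the numbers are not singled out. The fit with the replicate number as a block called no member in any comparison. Alternatives were other scalings, DESeq2 1.42.0, limma-voom (limma 3.58.1), no filter, only the groups compared, the replicate block, the title code as a term, and libraries left out.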

Additional observations from a re-analysis of the deposited data

How the results depend on the processing

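No alternative called a member. The lowest adjusted p of a member was 0.628, for Glul in HA against LP with the replicate block, among alternatives that keep at least 2 libraries in each group. Leaving out LP replicates 1 and 2, with high striatal markers, was added after the data were seen. It leaves LP with replicate 3 alone, the LP library with high meningeal markers, which is assumed to vary like the other groups, and it bears little weight (lowest adjusted p 0.570, for Glul in HP against LP). Of 550 single-member values under alternatives, 513 kept their sign and 37 changed it, 25 of these with 1 library left out. Where a sign changed, the cause was not tested.

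Over all genes, 2 were called in HP against LP, 2 in HA against HP and 0 in HA against LP (edgeR, 951 to 1142 at an unadjusted p under 0.05). In HP against LP the count was 1 with library totals, 32 with DESeq2, 53 without a filter, 4 with only the 2 groups, 4 with the replicate block and 37 without HA replicate 3 and LP replicate 3. In HA against HP it was 8 with DESeq2, 5 without a filter, 3 with the title code as a term and 10 without those 2 libraries. With the title code, 0 members were called and the unadjusted p of S100b was 0.025 (log2 fold change -0.17, adjusted p = 0.755, edgeR). In HA against LP it was 27 with DESeq2, 41 without a filter, 1 with only the 2 groups, 0 with the replicate block and 23 without the 2 libraries. Leaving out 1 library at a time gave 1 to 21 genes in HP against LP (21 without LP replicate 3), 1 to 9 in HA against HP (9 without HA replicate 3) and 0 to 14 in HA against LP (14 without LP replicate 3). The replicate block, for which same-numbered libraries correlated at 0.14, -0.03 and 0.16 between HP and LP and at 0.08, 0.00 and 0.12 between HA and HP, changed no member's call.

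Signs that changed were of small values. With library totals in HA against HP, Slc1a2 was at 0.0087, Sox9 at 0.014 and Agt at 0.0093 on the log2 scale. Without HA replicate 3 and LP replicate 3, Slc1a3 was at -0.051 in HP against LP. There, in HA against HP, Slc1a2 was at 0.0067, Sox9 at 0.012 and Agt at 0.055, and Agt was at 0.0028 in HA against LP. Against the single LP library left without LP replicates 1 and 2, Sox9 was at 0.021 in HP against LP, and Gfap at -0.0077, Slc1a3 at 0.070 and Sox9 at 0.012 in HA against LP.

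With 1 library left out in HP against LP, Gfap ranged over -0.32 to 0.096 (lowest without HP replicate 2), Slc1a3 over -0.051 to 0.046 and Sox9 over -0.096 to 0.057. In HA against HP the ranges were -0.060 to 0.36 for Gfap (highest without HP replicate 2), -0.17 to 0.039 for Aqp4, -0.050 to 0.016 for Slc1a2, -0.066 to 0.059 for Aldh1l1, -0.067 to 0.011 for Gja1, -0.066 to 0.061 for Sox9 and -0.061 to 0.055 for Agt. In HA against LP they were -0.094 to 0.15 for Gfap, -0.024 to 0.18 for Aqp4, -0.15 to 0.042 for S100b and -0.099 to 0.049 for Sox9.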

Other observations

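Markers of other cells gave summed levels that varied less than the meningeal ones, over all 9 libraries. They lay between 5155 and 6149 CPM for neurons, 1484 and 1850 CPM for oligodendrocyte precursors, 327 and 397 CPM for microglia and 267 and 382 CPM for endothelial cells. Mural markers lay between 209 and 538 CPM, with the highest value in HA replicate 3 and the next, 326 CPM, in LP replicate 3. Ependymal markers lay between 99.02 and 130 CPM, tanycyte markers between 138 and 217 CPM and choroid plexus markers between 272 and 377 CPM. Cortical and hippocampal markers lay between 145 and 188 CPM, thalamic markers between 332 and 394 CPM, pituitary markers between 14.7 and 50.3 CPM and blood markers between 16.3 and 91.3 CPM.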
